A study of Mus musculus with 12 samples.

Results

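Stat proteins are latent transcription factors: cytokine receptors recruit Jak kinases, which phosphorylate a Stat on tyrosine, and the Stat dimer then enters the nucleus and binds short palindromic DNA elements. Leukaemia inhibitory factor (LIF), a cytokine of the Il6 family, activates Stat3 through the receptor subunits Lifr and Il6st. Some Stat genes are known targets of Stat proteins, and the promoter of Stat3 is a textbook site at which Stat3 binds its own gene. The 6 Stat genes examined here were Stat2, Stat3, Stat4, Stat5a, Stat5b and Stat6, out of 21951 protein-coding genes in the GENCODE M21 annotation of mm10. A gene was scored in each of the 5 summit lists of the series by every summit within 50 kb of any of its annotated transcript starts. Of 2136 summits in all, 10 met this rule: 8 in the list from LIF-treated cells, 1 in the basal list and 1 in the peroxide list of the same cells.

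Binding was measured by ChIP-seq, in which chromatin cross-linked with formaldehyde is precipitated with an antibody to Stat3 and its DNA is sequenced. The cells were immortalised mouse embryonic fibroblasts (MEFs) from Stat3 fl/fl embryos, in which Cre had deleted Stat3 and a retroviral MSCV vector with GFP supplied either WT-Stat3 (-/-WT) or Stat3-C3S (-/-C3S), a redox-insensitive form with substituted cysteines. Both are polyclonal lines sorted for the markers of the vectors. All groups were kept overnight in 0.5% FBS. The 5 groups were -/-WT basal, -/-WT with LIF (10 ng/ml for 45 min), -/-WT with hydrogen peroxide for 1 h, -/-C3S basal and -/-C3S with peroxide for 1 h, each with 2 ChIP replicates. The labels give the peroxide dose as 100 mM, whereas the unit in the study's methods is µM. A list of -/-C3S cells with LIF was not analysed here. As Stat3 protein came from the vector and not from the gene on chromosome 11, a summit at the Stat3 promoter describes binding there and no output of the gene, and RNA was not analysed here.

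Replicates were pooled by the authors at the peak-calling step, so each condition had 1 list, no replicate error and no test between conditions. The lists held 230 (-/-WT basal), 1088 (-/-WT LIF), 450 (-/-WT peroxide), 145 (-/-C3S basal) and 223 (-/-C3S peroxide) summits. A summit is the base of highest signal in a peak, and each has a deposited score that served only to rank it within its own list, with rank 1 as the highest score. The files give no read depth. The study's text gives more unique reads for the LIF libraries than for the others, so LIF treatment and depth cannot be told apart as the source of the longer LIF list, and absence from a shorter list is absence from that list only.

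The sequences at the summits are shown first, because the sites within them recur in the results below. Capitals mark the 9-base element closest to the sis-inducible element (SIE), the palindrome that Stat3 dimers bind, whose consensus is TTCCNGGAA, with up to 1 mismatch where there was such a site and otherwise 2 mismatches in 1 arm. Each window holds the 80 bases on both sides of the summit, 161 bases in all, from GRCm38 (mm10) and in the direction of the gene. The Stat3 window is chr11:100939711-100939871 on the minus strand, the Stat5a window chr11:100858480-100858640 on the plus strand, the Stat2 window chr10:128270232-128270392 on the plus strand, and the Stat5b window, from an intron, chr11:100788116-100788276 on the minus strand.
Stat3 promoter: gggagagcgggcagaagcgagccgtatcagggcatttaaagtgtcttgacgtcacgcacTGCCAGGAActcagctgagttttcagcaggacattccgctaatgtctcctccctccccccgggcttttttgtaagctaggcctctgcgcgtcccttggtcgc
Stat5a upstream summit: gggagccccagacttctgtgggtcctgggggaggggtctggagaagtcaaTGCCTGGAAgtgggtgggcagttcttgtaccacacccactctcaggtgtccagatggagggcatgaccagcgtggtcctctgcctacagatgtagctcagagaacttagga
Stat2 promoter: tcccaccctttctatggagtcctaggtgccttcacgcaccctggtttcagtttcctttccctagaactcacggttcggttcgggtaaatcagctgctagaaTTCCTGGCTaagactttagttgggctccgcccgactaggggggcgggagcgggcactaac
Stat5b intron: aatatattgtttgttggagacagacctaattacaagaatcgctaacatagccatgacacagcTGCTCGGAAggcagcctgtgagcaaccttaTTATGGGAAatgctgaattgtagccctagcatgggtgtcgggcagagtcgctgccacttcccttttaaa

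For 3 further summits, whose windows overlapped annotated exons, only the element with 10 bases on both sides is given, on the plus strand. They are the other Stat5a summit (chr11:100859349-100859377), the summit beyond Stat4 (chr1:52113872-52113900) and the upstream summit of Stat6 (chr10:127597612-127597640).
Stat5a exon summit: ccatgccaacTTCCAGGCAgagaggaggc
Stat4 summit: gccggctgagTTCCCAGAAagcacgtggt
Stat6 upstream summit: tccctcccacTTCTGGGAAagcagggcag

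After LIF, all 6 Stat genes had a summit within 50 kb, whereas 1 of 6, Stat3, had one in the -/-WT basal list and in the -/-WT peroxide list, and none had one in either -/-C3S list. Among all protein-coding genes the share with such a summit was 7.38% after LIF, 0.615% in the -/-WT basal list, 1.15% with peroxide, 0.410% in the -/-C3S basal list and 0.574% in the -/-C3S peroxide list. A count of 0 of 6 in the -/-C3S lists is thus near the background of those lists. As the 6 genes were chosen with earlier results of these data known, their counts here and below are a description and not a test. The members were not spread evenly: Stat5b, Stat5a and Stat3 lie side by side within 159 kb of chromosome 11, and 2 LIF summits were within 50 kb of all 3 genes. The 8 LIF summits therefore made 12 pairs of gene and summit. In 5 of the 12 pairs the nearest start was that of a transcript annotated as a retained intron and not as protein-coding.

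**Figure D1:**
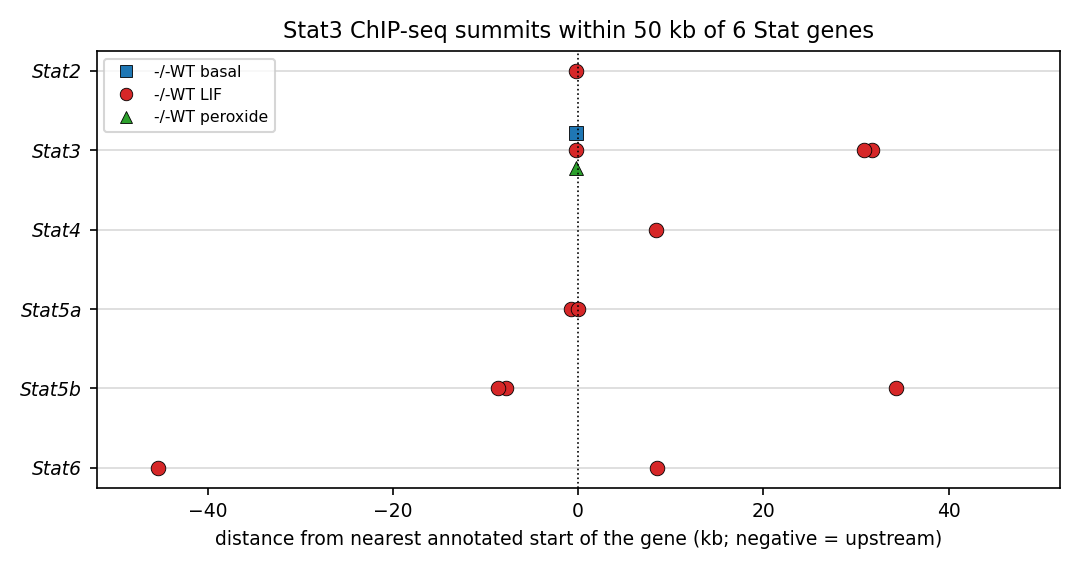
Distance in kb (x axis) from the nearest annotated transcript start of each of 6 Stat genes (rows) to every summit within 50 kb, by list (circles LIF, squares basal, triangles peroxide, all -/-WT). Summits at distance near 0 are seen for Stat2, Stat3 and Stat5a, Stat3 alone has symbols of all 3 lists, and the -/-C3S lists gave no symbol.

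A narrower window, the promoter from 5 kb upstream to 0.5 kb downstream of a start, held a LIF summit at 3 of the 6 genes, Stat2, Stat3 and Stat5a, against 1.62% of all protein-coding genes. In the -/-WT basal list the corresponding count was 1 of 6 against 0.0273%, and in the -/-WT peroxide list 1 of 6 against 0.0456%, in both lists at Stat3. Stat3 was also the one protein-coding gene of 21951 with a promoter summit in all 3 -/-WT lists, a share of 0.00456%. Within the wider 50 kb, 5 protein-coding genes had a summit in all 3 -/-WT lists, namely Stat3, its neighbour Cavin1, Prdm4, Pwp1 and Rab28, which were listed after their values were seen. Of these, Rab28 also had summits in the -/-C3S lists.

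Stat3 (ENSMUSG00000004040), which encodes the transcription factor precipitated in this assay, is transcribed leftwards from an outermost start at 100939540 on chromosome 11. Its LIF summit lay at 100939791, 251 bp upstream of that start, with a score of 144, the highest of 1088. The -/-WT basal summit was at 100939758, 218 bp upstream, with a score of 16.4 and rank 48 of 230. The -/-WT peroxide summit was at 100939786, 246 bp upstream, with a score of 12.3 and rank 203 of 450. The LIF and peroxide positions differed by 5 bp and the LIF and basal positions by 33 bp, so the 3 lists placed the summit in the same stretch of promoter. In terms of their own lists, 0.0919% of LIF summits, 20.9% of basal summits and 45.1% of peroxide summits scored as high or higher. The place of the Stat3 promoter was thus at the top of the LIF list, in the upper part of the basal list and near the middle of the peroxide list, an order among lists of different length and content and not a comparison of binding strength.

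In the -/-C3S lists, the summit nearest to any Stat3 start was 10.5 Mb away under basal conditions and 27.2 Mb away with peroxide. The summits carry running numbers along each chromosome, and in the -/-C3S basal list 2 numbers were missing between the summits that flank Stat3, which stand 62.7 Mb apart. The deposited list therefore does not say whether a peak at Stat3 was called in -/-C3S cells and then removed, or was not called. Numbers were missing around all 6 genes in the -/-C3S basal list and around 4 in the -/-WT basal list. In the -/-WT peroxide list this held for 2 genes and in the -/-C3S peroxide list for 1. Where a gene had a flanking summit on 1 side at most, as Stat3 in the -/-C3S peroxide list, missing numbers could not be counted. The same limit thus holds for absences at the other genes in these lists. In the LIF list no number was missing between the flanking summits of any of the 6 genes.

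**Figure D2:**
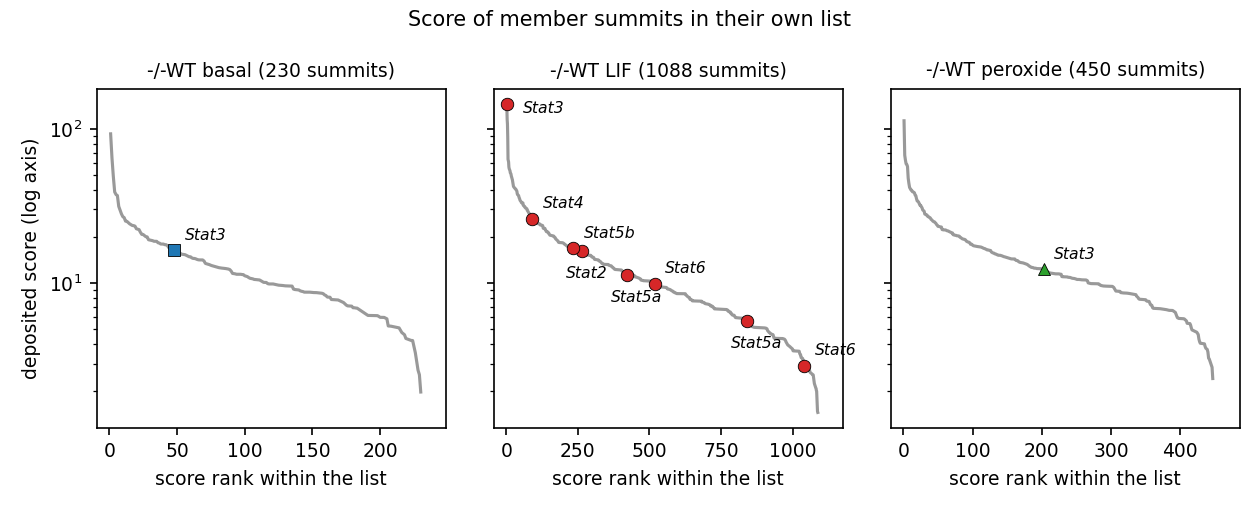
Deposited score (y axis, log scale) against score rank within the list (x axis) for the 3 -/-WT lists, with a grey line through all summits and symbols on those within 50 kb of a Stat gene, named by the member closest to them. The LIF summit of Stat3 is the first of its list, the basal one is rank 48 of 230, the peroxide one rank 203 of 450, and the remaining LIF summits of Stat genes spread from rank 90 to rank 1041.

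The promoter of Stat3 also stood apart from the rest of the basal and peroxide lists in the kind of sequence it lies in. In those lists nearly every summit fell in repeats: fewer than 50% of the bases within 80 bp of the summit were repeat-masked in 4 of 230 -/-WT basal summits and in 4 of 450 -/-WT peroxide summits, compared with 1055 of 1088 LIF summits. Stat3 was 1 of the 4 in both lists. In its LIF window 21 of 161 bases were masked, all in 1 stretch, which is 13.0%. The other 3 basal summits were nearest to Osmr, a receptor subunit for oncostatin M, Junb, an AP-1 subunit, and Gpam, and the other 3 peroxide summits to Gm18342, Gm29904 and Ifit1bl1. These neighbours were looked up after the values were seen. Among the 8 summits, those at Stat3 (in both lists), Osmr and Junb had an SIE with up to 1 mismatch within 80 bp, and the others did not. Over all summits the share with such an SIE was 6.52% in the -/-WT basal list and 6.22% in the -/-WT peroxide list. The -/-C3S lists had 8 of 145 and 2 of 223 summits with fewer than 50% of bases masked, none of them near a Stat gene. Of these -/-C3S summits, the basal one at 124382857 on chromosome 2 also had an SIE with up to 1 mismatch within 80 bp.

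Few LIF summits recurred in any other list. Within 200 bp of 5 LIF summits there was a summit of at least 1 other list, and the Stat3 promoter was the one of the 5 with both a -/-WT basal and a -/-WT peroxide summit. Osmr (LIF rank 2, basal rank 191) and Junb (LIF rank 5, basal rank 75) were shared with the basal list alone. A summit near Camk2b, in fully masked sequence, was shared with the peroxide list and both -/-C3S lists, and one near Gm10060 with the -/-C3S peroxide list.

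**Figure D3:**
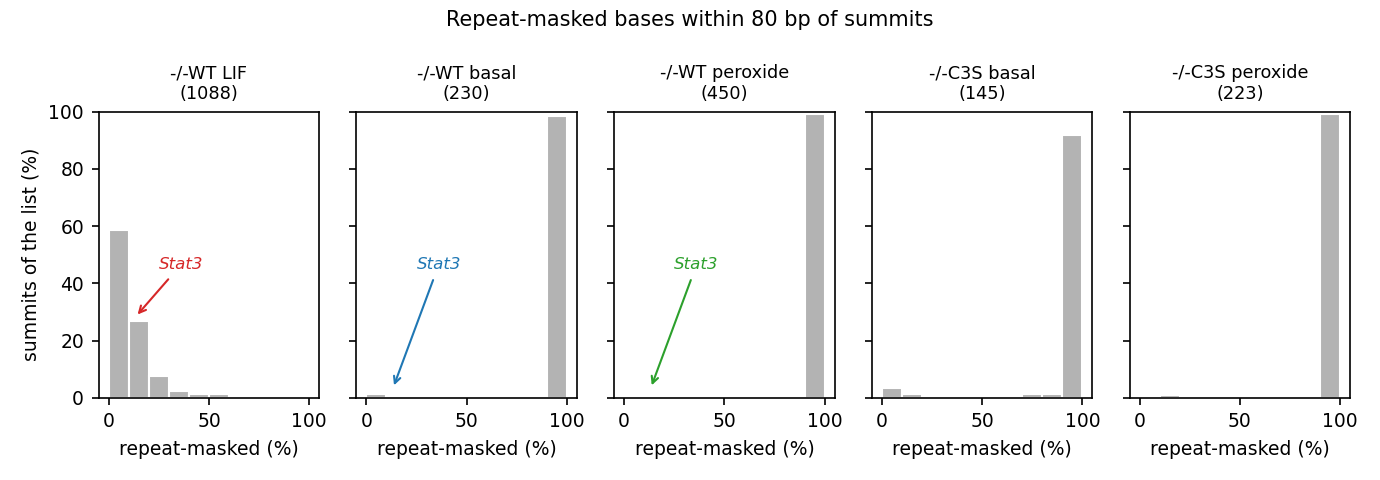
Share of summits in each list (y axis, %) by the share of repeat-masked bases within 80 bp of the summit (x axis, %), for the 5 lists with their number of summits, and with arrows at the Stat3 promoter summit, at 13.0% masked in all 3 -/-WT lists. In the basal and peroxide lists the mass of the summits is at the right end, and the Stat3 promoter lies at the left with very few others.

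At Stat3, the LIF summit was flanked by 2 SIE-like sites. The site with 1 mismatch, TGCCAGGAA in the direction of the gene, spans 100939804 to 100939812, with its centre 17 bp from the summit on the side away from the gene. The other, TTCCGCTAA, has 2 mismatches, spans 100939771 to 100939779 and was centred 16 bp from the summit on the side of the gene. From the peroxide summit the first of these sites was 22 bp away and from the basal summit 50 bp. No consensus SIE and no AP-1 site (TGANTCA) was found within 80 bp of any of the 3 Stat3 promoter summits. The HRE core (ACGTG or GCGTG, on either strand), to which Hif-1 binds, was present in all 3 windows, with its centre 26 bp from the LIF summit.

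Stat5a and Stat5b encode near-identical Stats of growth hormone, prolactin and interleukin signalling and are transcribed in opposite directions from starts 8.63 kb apart. Stat5a (ENSMUSG00000004043) had 2 LIF summits in its promoter and none in the other lists. The higher-scoring one, at 100858560, was 791 bp upstream of a start, with a score of 11.3 and rank 423. The other, at 100859419 in the untranslated part of the first exon, was 9 bp past a start, with a score of 5.69 and rank 842, and 859 bp from the first. Both ranked far below the Stat3 summit of the same list. In the basal and peroxide lists the nearest summits to Stat5a were those at the Stat3 promoter, 60.7 and 60.8 kb from a Stat5a start.

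Stat5b (ENSMUSG00000020919) had no promoter summit in any list. The same 2 Stat5a summits lay 7.84 and 8.70 kb upstream of its outermost start, closer to Stat5a than to Stat5b. Another LIF summit, at 100788196, fell in an intron of Stat5b, 34.3 kb downstream of the start of a shorter protein-coding transcript, with a score of 16.8 and rank 233. The annotated start nearest to this intronic summit was that of Gm24358, a small RNA gene 13396 bp away. The 2 Stat5a summits were also 30.9 and 31.8 kb from a Stat3 start, that of a retained-intron transcript, but lay beyond the end of Stat3, 79961 and 80820 bp from its nearest coding start. At these genes 3 or more LIF summits within 50 kb were counted for Stat3 and Stat5b, 2 of 6 members against 0.314% of protein-coding genes, and 2 or more for 4 of 6 members (Stat3, Stat5a, Stat5b and Stat6) against 1.20%. The shared summits and starts make these counts dependent on each other.

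**Figure D4:**
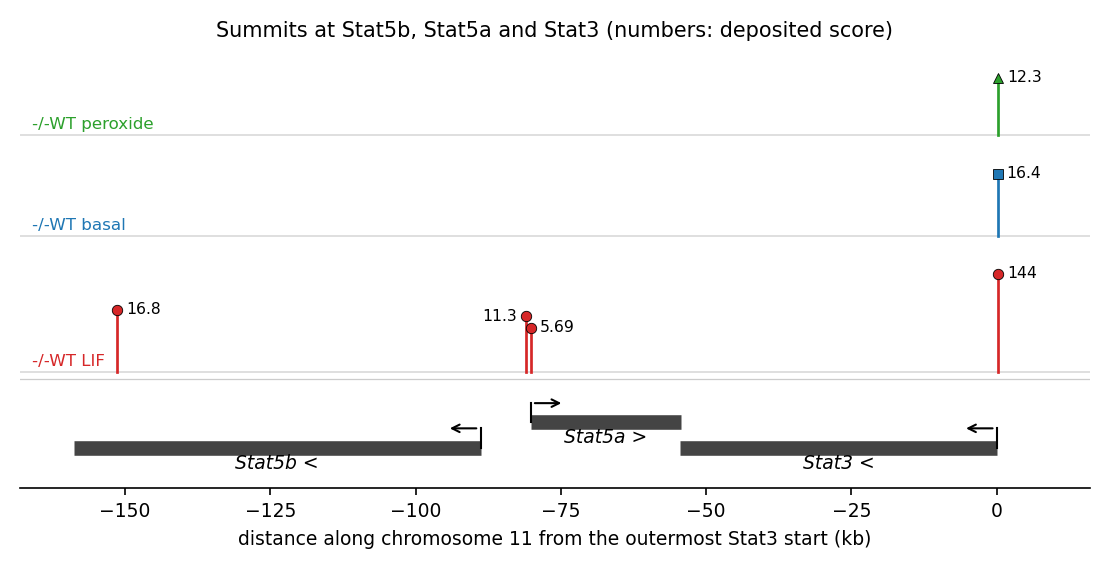
The Stat5b, Stat5a and Stat3 genes (bars, with arrows at the outermost coding starts) in kb from the outermost Stat3 start (x axis), with the summits of the 3 -/-WT lists above them, the deposited score printed at each and the stick height growing with its logarithm. LIF gives summits in Stat5b, at the start of Stat5a and at the start of Stat3 (score 144), whereas the basal (16.4) and peroxide (12.3) lists hold the Stat3 summit alone. Scores are not comparable between lists.

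Stat2 (ENSMUSG00000040033), which joins Irf9 in the interferon-activated complex ISGF3, had 1 LIF summit, at 128270312 on chromosome 10. It was 247 bp upstream of the nearest start and 264 bp upstream of the nearest protein-coding start, with a score of 16.2 and rank 266. The distance to the start was thus like that of the Stat3 summit (251 bp), at a far lower rank. No site with up to 1 mismatch was found within 80 bp, and the window held the 2-mismatch site TTCCTGGCT, centred 25 bp from the summit, and TTCCCTAGAA, in which TTC and GAA are 4 bases apart, centred 20 bp on the other side. The nearest summit in the other lists was 1.11 Mb away in the -/-WT basal and -/-C3S basal lists, 4.47 Mb in the -/-C3S peroxide list and 13.9 Mb in the -/-WT peroxide list.

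Stat6 (ENSMUSG00000002147), the Stat of interleukin 4 and interleukin 13 signalling, had 2 LIF summits, neither in its promoter. The one at 127667865 on chromosome 10 was 6908 bp beyond the end of Stat6 and 24.9 kb from its nearest protein-coding start, with a score of 2.91 and rank 1041, close to the bottom of the list. Its nearest annotated start was that of Nemp1, 699 bp away. The one at 127597606 was 45.4 kb upstream of Stat6, with a score of 9.89 and rank 518, in an exon of the antisense RNA Gm16217, whose start was 1058 bp away. For both, 3 genes had a start nearer than Stat6 did. Chromosome 10, with Stat2 and Stat6, held 11.8% of LIF summits but 4.65% of protein-coding genes, and 14.4% of its protein-coding genes had a LIF summit within 50 kb. On chromosome 11 that share was 6.47% and on chromosome 1 it was 3.73%. Within 1 Mb of a start there were 9 LIF summits for Stat6 and 8 for Stat2, compared with 4 for each of Stat3, Stat5a and Stat5b and 2 for Stat4.

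Stat4 (ENSMUSG00000062939), the Stat of interleukin 12 signalling, had 1 LIF summit within 50 kb, at 52113862 on chromosome 1, with a score of 26.2 and rank 90, the second highest rank among those of Stat genes. Starts of 2 other genes were closer to it than any of Stat4. It was 6673 bp beyond the end of Stat4, 8.41 kb from the start of a retained-intron transcript and 106 kb from the nearest protein-coding start of Stat4. The closest start, 111 bp away, was that of the long non-coding RNA Gm31812. In the other lists the nearest summit was between 3.16 Mb (-/-WT basal) and 21.8 Mb (-/-C3S peroxide) from a Stat4 start.

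Across the 8 LIF summits, an SIE with up to 1 mismatch was present within 80 bp in 5, against 66.6% of the LIF list (95% exact Clopper-Pearson interval 63.7 to 69.4%, which like all intervals here covers counting error only). With up to 2 mismatches in 1 arm the count was 7 of 8, against 87.3% of the list, and the summit without a site was that of Stat6 next to Nemp1. None of the 8 had the consensus itself, which 15.3% of the list had (13.2 to 17.5%). The highest-scoring summit of the list was therefore one without a consensus SIE. TTCNNNGAA, which takes in every consensus SIE, was present in 2 of 8, against 40.7% of the list, and TTC and GAA with 4 bases between them in 1 of 8, against 5.06%. AP-1 sites were found at none of the 8, against 23.2%, the HRE core in 5 of 8, against 25.8%, and AGGNNNAGG in 3 of 8, against 16.2%. With 8 summits, these counts are a description.

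The sites with 1 mismatch at 5 LIF summits were of 2 forms. The Stat3 site and both Stat5a sites were of the form TGCCNGGAA (either strand), which 112 of 1088 LIF summits (10.3%) had within 80 bp. The Stat5a upstream and exon summits shared the same 9 bases, TGCCTGGAA, read on opposite strands, a sequence found at 31 LIF summits (2.85%). The summits near Stat4 and upstream of Stat6 shared TTCCCAGAA, also on opposite strands, which was found at 167 LIF summits (15.3%). Centres of these sites were 17 to 56 bp from their summits, with a median of 24 bp, and the median over the 725 LIF summits with such a site was 20 bp.

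**Figure D5:**
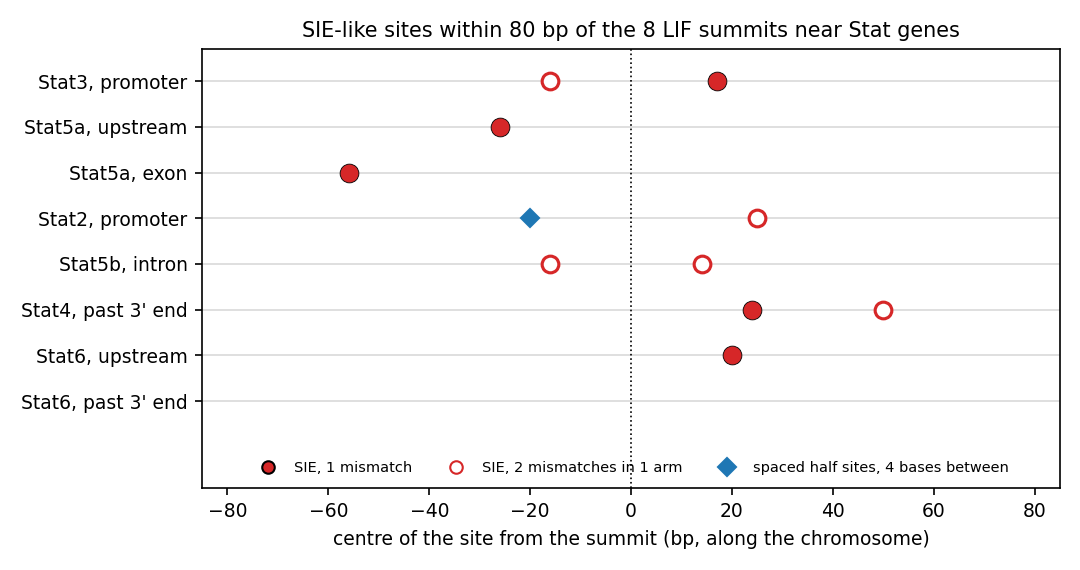
Position of SIE-like sites (x axis, bp from the summit along the chromosome) within 80 bp of the 8 LIF summits near Stat genes (rows), with filled circles for 1 mismatch, open circles for 2 mismatches in 1 arm and a diamond for TTC and GAA with 4 bases between them. The Stat3 and Stat5b summits lie between 2 sites, the Stat5a exon site is the farthest from its summit at 56 bp, and the Stat6 summit beyond the 3′ end has no site.

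Consensus SIEs did occur in the neighbourhood of the 6 genes, away from the summits. Within 50 kb of a start there were 7 at Stat3, 7 at Stat4, 3 at Stat5a and 1 each at Stat2, Stat5b and Stat6. The stretches searched were unequal, from 114 kb at Stat2 to 218 kb at Stat4. Those of Stat3, Stat5a and Stat5b overlap, so a site can count for more than 1 gene. None of these sites had a LIF summit within 80 bp. Over chromosomes 1 to 19, X and Y, 174 of 69398 consensus SIEs (0.251%, 0.215 to 0.291%) had one, so none at the 6 genes is near what the genome as a whole gave. In the RefSeq promoters of the 6 genes (9 windows of GRCm38, from 250 bases before to 50 after a start), none had a consensus SIE, against 1.15% of 32851 promoters, and 2 had a site with up to 1 mismatch, against 17.8%. These were the Stat2 promoter, with ATCCCGGAA, and 1 of the Stat5b promoters. The 1-mismatch site of Stat3 begins just beyond the upstream end of its RefSeq window.

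GC content and CpG dinucleotides varied among the summits. In the Stat3 LIF window GC was 57.8% with 10 CpGs, and 73.3% of LIF summits had a lower GC content and 83.5% fewer CpGs. The Stat4 window had the highest values of the 8, with 65.8% GC and 14 CpGs. Both Stat5a windows had 1 CpG at 58.4 and 60.9% GC, and the Stat5b intron window had the lowest GC content, 46.0%. The median over the LIF list was 50.9% GC and 3 CpGs.

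Of 32 other genes of LIF, Jak and Stat signalling, 13 had a LIF summit within 50 kb, 2 a -/-WT basal summit and none a summit of the other 3 lists. The background shares are those given above for the same lists, 7.38% after LIF and 0.615% in the basal list. By role, LIF summits were near 3 of 6 receptors, 3 of 4 Jak kinases, 4 of 8 feedback inhibitors of the Socs family, 1 of 4 phosphatases, 2 of 5 cofactors, 0 of 4 Pias inhibitors and not near the ligand gene Lif. Among the receptors, Il6st, the signal-transducing subunit shared by the Il6 family, had its highest-scoring summit 0.149 kb from a start at rank 128, Osmr 0.084 kb from a start at rank 2, and Lifr 43.7 kb from a start at rank 992. Among the kinases, the summit near Jak1 had rank 10 but was 26.9 kb from a start, whereas those of Jak2 (0.501 kb, rank 589) and Jak3 (0.054 kb, rank 205) were in promoters. These kinases phosphorylate the receptor and the Stat.

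The feedback genes Socs1 (1.95 kb, rank 632), Socs2 (0.137 kb, rank 727), Socs3 (0.062 kb, rank 47) and Cish (0.038 kb, rank 168) each had a LIF summit in the promoter window. Their proteins inhibit Jak and receptor signalling. Socs3 had the largest number of LIF summits of the 38 genes examined, 8 within 50 kb, compared with 3 at Stat3. Ptpn1, a tyrosine phosphatase, had 1 summit 6.70 kb from a start at rank 186, and Irf9, the partner of Stat2, 1 at 0.131 kb and rank 448. Prdx2, a peroxidase that passes oxidation to Stat3, had its highest-scoring summit 5.10 kb from a start at rank 5, the summit at Junb named above. The 2 genes with a basal summit were Osmr (rank 191) and Prdx2 (rank 75). The count of 0 of 32 in the peroxide list stands beside a background of 1.15% and is near it.

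The pattern of Stat3 over the 5 lists, taken as the highest within-list score percentile of any summit within 50 kb, was 100 in the LIF list, 79.6 in the basal list, 55.1 in the peroxide list and 0 in both -/-C3S lists. The protein-coding gene with the most similar pattern, by the Euclidean distance between the 5 percentiles, was Cavin1, at distance 0, because the same summits lie within 50 kb of it. Next came 9 genes tied at a distance of 56.3, all through the summits at Junb, among them Junb, Prdx2, Hook2 and Mast1, with percentiles of 99.6 in the LIF list, 67.8 in the basal list and 0 elsewhere. With 5 lists, 3 of them from the same -/-WT cells, the distances are a description.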

How the data were processed

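Stat3 ChIP-seq lists from 5 conditions of -/-WT and -/-C3S MEFs, each made by the authors from 2 replicates, were analysed. The authors mapped paired-end reads to mm10 and retained peaks more than 2-fold above IgG. HISAT2, Picard and MACS2 are named in the submitters' processing notes without versions or roles. The study's text calls the reads unique, without saying whether this concerns multi-mapped or duplicate reads, and a list of excluded regions is not given in the sources used here. These choices could change the peaks called in repeats. Each deposited list holds a summit and a score. The unit of the score is not given in the sources used here. Input and IgG libraries were not analysed here.

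Summits were matched to GENCODE M21 starts and to GRCm38.p6 sequence with Python 3.11.15, pandas 2.3.3, NumPy 2.4.6, SciPy 1.17.1, pysam 0.24.0 and samtools 1.23.1, and plotted with matplotlib 3.10.9. Places were assigned in the order promoter, exon, intron. Motifs were read on both strands. Named genes were the 6 members, pathway genes with a summit, the gene with the start nearest to each member summit, and the 5 genes most like Stat3, with ties kept. Members and lists were chosen with earlier results of these data known. Planted distances (200 of 200) and planted sites (500 of 500) were recovered on simulated data. Alternatives were distances of 10, 20 and 100 kb, coding starts, gene spans, the higher-scoring 50% of a list, merged summits, other motif windows and mismatches.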

Additional observations from a re-analysis of the deposited data

How the results depend on the processing

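No paired analysis was possible because each list was made from both replicates, and for the same reason no replicate could be left out. Of 133 recomputed summary values, 121 stayed within 1.5 times the main count or kept the same value. Part of these could not move, so the 121 do not measure robustness. A count of 0 stays 0 at a shorter distance, with coding starts, in part of a list or with summits merged. All 6 Stat genes kept a LIF summit at 10 and 20 kb, in the higher-scoring 50% of the list and with summits merged. At 10 and 20 kb, however, Stat4 and Stat6 were kept only through starts of retained-intron transcripts. The nearest LIF summits to their protein-coding starts were 106 kb away for Stat4 and 24.9 kb away for Stat6. At 100 kb and from the gene span, which are wider rules, none could be lost. With protein-coding starts there were 5, without Stat4. At 100 kb, 3 members had a summit in the -/-WT basal list and 3 in the -/-WT peroxide list, since the Stat3 promoter summit then counts for Stat5a and Stat5b. In the higher-scoring 50% of the -/-WT basal list, 1 pathway gene was left. The rank of the Stat3 summit was also recomputed with summits merged and on chromosomes 1 to 19, X and Y alone. It was the same in all 3 lists, but neither setting could move it. The chromosome setting removed 0 summits, and merging removed 0 from the basal and peroxide lists. In the LIF list merging removed 5 and keeps the higher score, so rank 1 was fixed.

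Without a mismatch, 0 member summits had an SIE in the LIF, basal and peroxide lists, and within 40 bp 0 had one in the basal list. The median distance over the 6 members to the nearest summit was 4.04 kb after LIF, 4.05 kb with protein-coding starts and 4.31 kb in the higher-scoring 50%. In the -/-WT basal list it was 598 kb, and 605 kb with protein-coding starts. In the -/-C3S basal list it was 10546 kb, and 10555 kb with protein-coding starts, and in the -/-C3S peroxide list 24457 kb, and 27142 kb in the higher-scoring 50%. Of 60 distances of single members, 20 moved, among them Stat4 after LIF, from 8.41 to 106 kb with protein-coding starts, and Stat6 after LIF, from 8.46 to 24.9 kb with protein-coding starts and to 45.4 kb in the higher-scoring 50%. In that part of the list Stat5a moved from 0.009 to 0.791 kb. Depth is not in the files and limits each absence to the list in which it was found.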
